A study of Mus musculus with 8 samples.

Results

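The genes described here drive DNA replication and cell division: the Mcm subunits of the replication helicase, the DNA topoisomerase gene Top2a, the mitotic kinase gene Cdk1 and the centromere protein gene Cenpf. They were chosen by name, as Mcm2 to Mcm7, Mki67, Top2a, Cdk1 and Cenpf, wherever these appear in the authors' deposited table of genes that differ between ARE-/- and WT hearts. The table lists 4820 genes, 24.6% of the 19606 genes that the authors' adjustment implies were tested, and 8 of the 10 named genes are among them: Mcm2, Mcm3, Mcm5, Mcm6, Mcm7, Top2a, Cdk1 and Cenpf. Mcm4 and Mki67 are not listed and have no known direction here. The 7 genes other than Cenpf were higher in ARE-/- hearts, by 1.73-fold to 4.11-fold, while Cenpf stood at 23.6% of its WT level.

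The study sequenced RNA from the hearts of 4 ARE-/- mice and 4 WT mice, all male, of strain C57B6/J and aged 20 to 25 weeks. The labels do not spell out ARE, which is read here as the AU-rich element that shortens the life of the Ifng transcript. Ifng encodes interferon gamma (IFN-γ). Neither the bounds of the deletion nor the cells it affects could be taken from the labels. The title is about IFN-γ with androgens and the mitochondria of myocytes, and the comparison asks how the heart's transcripts differ when that brake on Ifng is missing. The tissue is whole heart, which holds heart muscle cells, vessel and connective tissue cells, and blood and immune cells.

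Before a cell copies its DNA, the proteins MCM2 to MCM7 form a ring with a single copy of each, load onto replication origins and later unwind the double helix at the moving fork. At the end of the cycle CDK1 with a cyclin starts mitosis, topoisomerase II alpha untangles the copied chromosomes, and CENP-F joins the outer kinetochore, where chromosomes meet spindle fibres. Heart muscle cells of adult mice rarely divide, whereas immune, endothelial and connective tissue cells of the heart can. CENP-F also binds microtubules outside mitosis, and mice whose heart muscle lacks it during development are known to develop dilated cardiomyopathy.

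Promoter windows are shown for the helicase gene with the highest rise (Mcm5), a second helicase gene (Mcm3), Cdk1, which rose more than Top2a, and the gene that fell (Cenpf), because these genes moved together or apart. All 8 genes matched a RefSeq window in build GRCm38.p6, from 250 bases before to 50 bases after the start of the transcript, and Mcm7 matched a second one. The Mcm5 window lies at chr8:75109259-75109558 on the forward strand. The Mcm3 window lies at chr1:20820263-20820562, the Cdk1 window at chr10:69352863-69353162 and the Cenpf window at chr1:189688037-189688336, each on the reverse strand. Each is written 5′ to 3′ on the strand of its gene, and capitals mark every match, on either strand, to the 3 motifs explained next.
Mcm5: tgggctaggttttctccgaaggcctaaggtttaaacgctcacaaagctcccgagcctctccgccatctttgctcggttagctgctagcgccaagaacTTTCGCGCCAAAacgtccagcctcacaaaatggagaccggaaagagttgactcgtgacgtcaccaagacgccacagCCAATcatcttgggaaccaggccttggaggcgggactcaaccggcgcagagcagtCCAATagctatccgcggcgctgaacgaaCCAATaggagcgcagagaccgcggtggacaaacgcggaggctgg
Mcm3: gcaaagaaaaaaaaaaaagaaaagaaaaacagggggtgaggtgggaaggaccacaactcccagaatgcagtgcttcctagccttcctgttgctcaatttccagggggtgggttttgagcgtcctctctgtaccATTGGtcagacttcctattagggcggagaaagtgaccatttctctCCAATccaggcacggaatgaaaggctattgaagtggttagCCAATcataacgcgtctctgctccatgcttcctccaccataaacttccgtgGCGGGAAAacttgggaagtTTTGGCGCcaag
Cdk1: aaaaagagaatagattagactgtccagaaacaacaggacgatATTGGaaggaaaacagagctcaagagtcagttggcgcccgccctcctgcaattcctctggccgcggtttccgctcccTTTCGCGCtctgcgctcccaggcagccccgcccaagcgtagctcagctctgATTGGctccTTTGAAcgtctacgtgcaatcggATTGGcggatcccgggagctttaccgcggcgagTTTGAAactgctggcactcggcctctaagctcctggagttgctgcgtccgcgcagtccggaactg
Cenpf: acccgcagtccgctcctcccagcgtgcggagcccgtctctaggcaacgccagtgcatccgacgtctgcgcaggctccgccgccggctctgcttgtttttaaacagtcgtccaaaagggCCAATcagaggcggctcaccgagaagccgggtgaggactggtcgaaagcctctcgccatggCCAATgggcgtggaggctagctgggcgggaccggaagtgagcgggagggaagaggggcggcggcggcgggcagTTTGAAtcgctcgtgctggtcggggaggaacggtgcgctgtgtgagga

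The motifs are letter strings bound by cell cycle factors. The first is the E2F site, searched as TTTCCCGC, TTTCGCGC, TTTGCCGC or TTTGGCGC and held by 2.26% of the 32851 windows of the table. The second is the cell cycle genes homology region (CHR), searched as TTTGAA or TTCGAA and held by 19.2% of windows. The last is the CCAAT box, searched as CCAAT and held by 37.4%. E2F letters were found in the windows of 5 of the 8 genes: Mcm3, Mcm5, Mcm6, Mcm7 and Cdk1. The window of Mcm2, which rose more than Mcm3, is not shown and holds no E2F letters. The matches in Mcm5 overlap each other, from 153 to 146 and from 149 to 142 bases before the start site, and those in Mcm3 lie 20 to 27 and 39 to 46 bases into the transcript. CHR letters were found in Mcm2, Mcm7, Top2a, Cdk1 and Cenpf, and the Top2a window holds 4 such places. Every one of the 8 genes has at least 1 CCAAT box in a window. The windows of Cdk1 and Cenpf share CHR and CCAAT letters, and of this pair only that of Cdk1 has E2F letters. A match is a run of letters and was not tested as a binding site.

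Library depth ran from 13416171 to 19432098 reads, as the total that the deposited FPKM values (fragments scaled to gene length and library total) imply. Ifng, the gene whose transcript the genotype concerns, had 103, 37, 27 and 61 reads in the ARE-/- libraries and 0, 3, 0 and 1 reads in the WT libraries, in order of replicate number. Normalised Ifng counts were 49.5 ± 25.4 in ARE-/- hearts and 1.15 ± 1.69 in WT hearts (SD, n = 4 each), so the labels and the gene go together. ARE-/- replicate 1 and WT replicate 3 stood apart from the other 3 libraries of their groups over the listed genes. Some results that these libraries move are given with and without them. Most single genes of the lists are given with all libraries only. The labels do not say whether RNA was extracted separately from each mouse, so p-values measure the spread between these libraries, which may in part be technical.

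**Figure D1:**
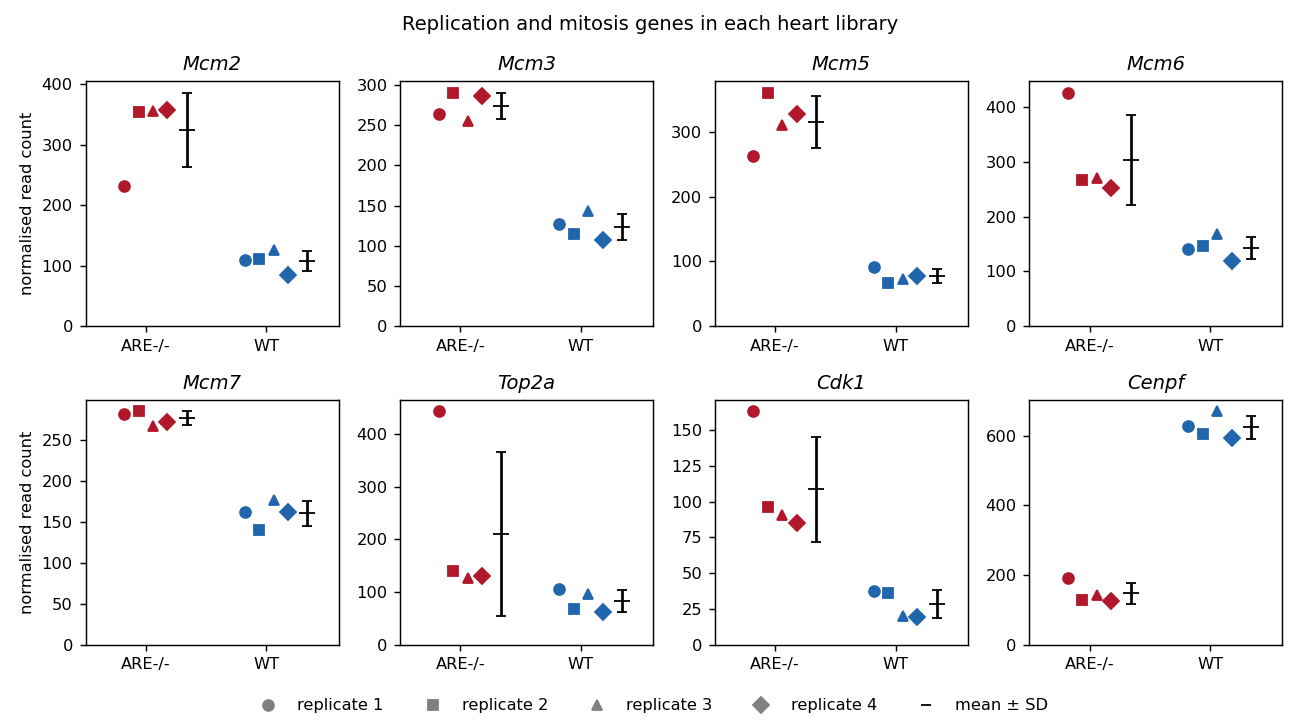
Normalised read count (vertical axis, linear and starting at 0) of the 8 genes in each heart library, 4 ARE-/- libraries at left and 4 WT libraries at right in each panel. Symbols stand for replicate numbers, and the bar shows the mean and SD of the 4 libraries. All 8 genes separate the groups, 7 with ARE-/- above WT and Cenpf with WT above ARE-/-, and ARE-/- replicate 1 lies apart for Mcm2, Mcm6, Top2a and Cdk1.

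The helicase genes were higher in ARE-/- hearts in every library pair that could be formed. The values below are normalised counts, which are read counts divided by the authors' size factors, in order of replicate number. A log2 difference subtracts the WT mean from the ARE-/- mean after each normalised count was raised by 0.5 and put on the log2 scale. Because these genes were chosen from this very comparison, their differences are a description without a test. Where the authors' call is quoted, it is the adjusted p of DESeq2 in the authors' deposited table. In bulk tissue, more cells that express a gene and more RNA of it per cell cannot be told apart.

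Mcm5, a ring subunit that forms the gate of the helicase with MCM2, had 263.3, 360.3, 310.0 and 326.9 normalised counts in ARE-/- libraries, against 91.3, 65.8, 72.6 and 77.1 in WT libraries. The lowest ARE-/- library, replicate 1, held far more than the highest WT library, and no value of either group came near the other. The means were 315.1 ± 40.4 in ARE-/- hearts and 76.7 ± 10.8 in WT hearts (SD, n = 4 each), a 4.11-fold difference. On the log2 scale this is 2.03 ± 0.14 (SE), and the authors' deposited table gives an adjusted p of 1.6e-23 (DESeq2). In mm10 the gene (ENSMUSG00000005410) occupies chromosome 8 from 75109528 to 75128439, forward strand.

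Mcm2, whose protein also binds histones at the fork, had 232.2, 353.6, 354.7 and 356.5 normalised counts in ARE-/- libraries, against 109.3, 110.1, 124.9 and 84.3 in WT libraries. Replicate 1 of ARE-/- was low, the other 3 ARE-/- libraries were almost level, and the groups did not overlap. Mcm2 averaged 324.3 ± 61.4 in ARE-/- hearts and 107.1 ± 16.8 in WT hearts (SD, n = 4 each), a ratio of 3.03, or 3.31 without ARE-/- replicate 1. The log2 difference was 1.58 ± 0.19 (SE), with an adjusted p of 1.8e-11 in the authors' deposited table (DESeq2). Mcm2 (ENSMUSG00000002870) lies on the reverse strand of chromosome 6, from 88883475 to 88898780 in mm10.

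Mcm3, the subunit that neighbours MCM5 in the ring, had 264.1, 289.8, 255.5 and 286.0 normalised counts in ARE-/- libraries, against 127.3, 114.9, 143.3 and 106.9 in WT libraries. Its ARE-/- libraries lay close together, with no library apart. The means were 273.9 ± 16.7 in ARE-/- hearts and 123.1 ± 15.9 in WT hearts (SD, n = 4 each), a ratio of 2.23 and a log2 difference of 1.16 ± 0.10 (SE). The authors' deposited table gives Mcm3 an adjusted p of 4.4e-10 (DESeq2). The gene (ENSMUSG00000041859) lies on the reverse strand of chromosome 1, from 20802968 to 20820312.

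Mcm6 and Mcm7 belong, with MCM4, to the part of the ring that shows helicase activity on its own. Mcm6 had 426.8, 266.3, 270.4 and 251.6 normalised counts in ARE-/- libraries, against 140.5, 146.0, 167.5 and 118.2 in WT libraries. Here replicate 1 of ARE-/- was the high library, where it had been the low one for Mcm2 and Mcm5. The ratio of the Mcm6 means was 2.12 with all libraries and 1.84 without ARE-/- replicate 1, and the log2 difference was 1.06 ± 0.20 (SE). Mcm7 had 282.1, 285.3, 267.8 and 272.4 normalised counts in ARE-/- libraries, against 162.2, 140.0, 177.2 and 162.4 in WT libraries. These ARE-/- values had the smallest spread of the 8 genes (276.9 ± 8.17, SD, n = 4), yet the Mcm7 difference was the smallest as well, at 0.79 ± 0.07 (SE) on the log2 scale and a ratio of 1.73. The adjusted p in the authors' deposited table (DESeq2) was 4.2e-05 for Mcm6 and 4.8e-06 for Mcm7.

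Mcm6 (ENSMUSG00000026355) lies on the reverse strand of chromosome 1, from 128331590 to 128359664, and Mcm7 (ENSMUSG00000029730) on the reverse strand of chromosome 5, from 138164583 to 138172422, both in mm10. The annotation shows that 321 of the exon bases of Mcm7, or 7.25%, are shared with Ap4m1 on the opposite strand, and that the Mcm7 gene hosts Mir25, Mir93 and Mir106b. The sources used here do not say whether the counting used strand, so the Mcm7 value is less certain than those of the other helicase genes, which share no exon base with another gene.

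The mitotic genes rose as well, with more spread between ARE-/- libraries. Top2a, which encodes the enzyme that untangles sister chromosomes and is made mainly in dividing cells, had 443.1, 138.7, 126.4 and 130.6 normalised counts in ARE-/- libraries, against 105.7, 68.2, 95.8 and 61.7 in WT libraries. ARE-/- replicate 1 held 3.36 times the mean of the other 3 ARE-/- libraries, and the groups did not overlap although the lowest ARE-/- values came close to the highest WT value. Top2a averaged 209.7 ± 156 in ARE-/- hearts and 82.9 ± 21.2 in WT hearts (SD, n = 4 each). The ratio was 2.53 with all libraries and 1.59 without ARE-/- replicate 1, and the log2 difference was 1.14 ± 0.48 (SE). Top2a has the highest adjusted p of the 8 genes in the authors' deposited table, 0.0098 (DESeq2), and so lies nearest to the threshold of 0.05 that put a gene in the table. Mcm4 and Mki67 were not analysed here, and their adjusted p is not known.

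Cdk1, the kinase that starts mitosis, had 163.5, 96.2, 90.4 and 84.9 normalised counts in ARE-/- libraries, against 37.2, 35.9, 20.3 and 19.5 in WT libraries. Again replicate 1 of ARE-/- was the high library, and the lowest ARE-/- library stayed well above the highest WT library. The means were 108.8 ± 36.8 in ARE-/- hearts and 28.2 ± 9.63 in WT hearts (SD, n = 4 each), a ratio of 3.85, or 3.21 without ARE-/- replicate 1. On the log2 scale Cdk1 rose by 1.94 ± 0.33 (SE), with an adjusted p of 2.7e-07 in the authors' deposited table (DESeq2). Top2a (ENSMUSG00000020914) lies on chromosome 11, from 98992943 to 99024189, and Cdk1 (ENSMUSG00000019942) on chromosome 10, from 69336635 to 69352938, both on the reverse strand in mm10.

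Cenpf moved the other way. This long kinetochore protein gene had 191.3, 127.6, 143.1 and 125.8 normalised counts in ARE-/- libraries, against 627.0, 604.3, 669.9 and 593.0 in WT libraries. The WT libraries were nearly level, the ARE-/- libraries were all far below them, and replicate 1 was the highest of the ARE-/- group. Cenpf averaged 146.9 ± 30.6 in ARE-/- hearts and 623.6 ± 34.0 in WT hearts (SD, n = 4 each), with -2.10 ± 0.15 (SE) as log2 difference. In raw reads the libraries held 234, 114, 163 and 157 in ARE-/- hearts and 522, 505, 692 and 577 in WT hearts. The adjusted p in the authors' deposited table is 1.2e-28 (DESeq2), and by p Cenpf ranks 7 among the 2308 genes that fell. The gene (ENSMUSG00000026605) lies on the reverse strand of chromosome 1, from 189640599 to 189688086 in mm10, and shares no exon base with another annotated gene.

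Of the 8 genes, 7 rose and 1 fell, and the groups did not overlap in any of them. These counts follow from the choice of the genes. Of all genes tested, 24.6% are listed, 12.8% as risen and 11.8% as fallen, and the groups did not overlap in 81.5% of the 4820 listed genes.

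Set per length of gene, Cenpf had the highest mean level of the 8 genes in WT hearts and the lowest in ARE-/- hearts. In ARE-/- hearts the levels were 6.46 ± 0.734 FPKM for Mcm2, 6.37 ± 0.761 for Mcm7, 6.23 ± 0.549 for Mcm5, 5.43 ± 0.538 for Mcm3 and 4.84 ± 1.88 for Mcm6 (SD, n = 4). Top2a at 2.88 ± 2.49 FPKM, Cdk1 at 2.63 ± 1.20 and Cenpf at 0.911 ± 0.289 followed. In WT hearts Cenpf led at 3.31 ± 0.221 FPKM, next to Mcm7 at 3.21 ± 0.374, and then came Mcm3 at 2.12 ± 0.290, Mcm6 at 1.94 ± 0.279, Mcm2 at 1.88 ± 0.292 and Mcm5 at 1.33 ± 0.186 (SD, n = 4). Top2a at 0.938 ± 0.238 and Cdk1 at 0.575 ± 0.182 FPKM were lowest in WT. In ARE-/- hearts the neighbours in this order differed by less than the larger SD of the pair, except Mcm5 from Mcm3 and Cdk1 from Cenpf. In WT hearts this held for Cenpf and Mcm7, for Mcm3 and Mcm6 and for Mcm6 and Mcm2, and the other neighbours lay further apart than that.

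The levels of the 5 helicase genes lay closer to one another in ARE-/- hearts than in WT hearts. Within single libraries the highest of the 5 FPKM was 1.42 to 1.83 times the lowest in ARE-/- hearts and 2.05 to 2.82 times the lowest in WT hearts. Between group means it was 1.33 times in ARE-/- hearts and 2.42 times in WT hearts, or 1.75 times without ARE-/- replicate 1 and 2.29 times without WT replicate 3. Mcm5, lowest of them in WT, differed most between the genotypes, and Mcm7, highest in WT, differed least. The mean FPKM of the 5 helicase genes divided by the FPKM of Cenpf was 4.84, 7.90, 6.58 and 7.69 in the ARE-/- libraries, against 0.651, 0.612, 0.659 and 0.603 in the WT libraries. This ratio is taken within a library and does not depend on how libraries are scaled to each other. It does not remove the trends with GC content and gene length described further on, and Cenpf differs from the helicase genes in both. The mean of the helicase genes was above Cenpf in every ARE-/- library and below it in every WT library. Single genes could differ from that mean, as Mcm7 had 3.33 FPKM and Cenpf 3.23 in WT replicate 4.

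The 8 genes were split by ARE-/- replicate 1. Its log2 deviation from the ARE-/- mean was -0.46 for Mcm2, -0.25 for Mcm5, -0.05 for Mcm3 and 0.03 for Mcm7. For Cenpf it was 0.40, for Mcm6 0.52, for Cdk1 0.64 and for Top2a 1.31. So the library with the most Top2a and Cdk1 had the least Mcm2 of its group, and it also had the most Cenpf. It was also the library with the highest summed macrophage, T cell and red-cell markers and the lowest summed cardiomyocyte and endothelial markers of its group, as given further on. The split also ran along transcript GC content, which is described further on. Mcm2, Mcm5, Mcm3 and Mcm7 have 51.7% to 53.4% GC, and Cenpf, Top2a, Mcm6 and Cdk1 have 43.3% to 47.8%. Whether those cells or GC content bear on the split was not tested.

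Other genes of DNA replication were taken from 3 lists. Leaving out the genes chosen by name, 77 genes remain, of which 20 rose, 2 fell and 55 are not listed. That is 26.0% risen beside 12.8% of all genes tested, and 2.60% fallen beside 11.8%. The median log2 difference of the 22 listed genes was 0.94, beside 0.44 for all listed genes. With the chosen genes included, 26 of 84 rose and 2 fell. For these an edgeR refit gave 23 risen and 2 fallen genes, and 25 and 2 without the libraries that stood apart. It gave 17 risen without WT replicate 1, 16 risen and 1 fallen with offsets that remove a trend with GC content, described further on, and 2 and 0 with the close libraries of each group summed to a single sample. The lists were drawn up with earlier results of these data known, unlisted genes have no direction, and genes of a list are not independent of one another.

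Of 36 genes for origin licensing and the helicase, 11 rose and 1 fell. That is 30.6% and 2.78%, beside 12.8% risen and 11.8% fallen of all genes tested. Without the genes chosen by name, 6 of 30 rose (20%) and 1 fell (3.33%). Timeless, which protects the fork, averaged 285.9 ± 23.1 normalised counts in ARE-/- hearts and 166.6 ± 16.2 in WT hearts (SD, n = 4 each), or 0.78 ± 0.09 (SE) as a log2 difference, or 0.14 in the edgeR refit with GC offsets. The other risen genes of the list beside the Mcm subunits above were the loaders Cdc6 and Cdt1, the helicase activators Gins1 and Gins2, and Mcm10, named after their values were seen, with log2 differences of 0.77 to 1.28. The one that fell was Gmnn, which encodes geminin, the inhibitor that binds CDT1 and blocks further licensing. Gmnn stood at 560.5 ± 11.7 normalised counts in ARE-/- hearts and 896.7 ± 106 in WT hearts (SD, n = 4 each), with -0.67 ± 0.09 (SE) as log2 difference and an adjusted p of 1.7e-05 in the authors' deposited table (DESeq2).

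Of 37 genes for DNA synthesis at the fork, 11 rose, Top2a among them, and none is listed as fallen. The risen share is 29.7%, and 27.8% without Top2a, beside 12.8% of all genes tested. Of all genes tested 11.8% fell. Pcna, the sliding clamp of the polymerases, averaged 1089 ± 132 normalised counts in ARE-/- hearts and 592.7 ± 97.6 in WT hearts (SD, n = 4 each), with 0.88 ± 0.14 (SE) as log2 difference. The ligase gene Lig1 rose by 1.04 ± 0.13, the polymerase subunit gene Pold4 by 0.80 ± 0.10 and Uhrf1, which guides DNA methylation after replication, by 1.19 ± 0.15 on the log2 scale. Chaf1a and Chaf1b, which encode subunits of the factor that lays histones on new DNA, rose by 1.30 ± 0.17 and 1.25 ± 0.29. Each value is a log2 difference with its SE over 4 libraries per group. With GC offsets Lig1 had 0.49 (edgeR adjusted p = 0.0768) and Pold4 had 0.14, and -0.20 when the libraries that stood apart were left out as well.

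Genes of deoxynucleotide supply moved both ways, with 4 risen and 1 fallen of 11. That is 36.4% and 9.09%, beside 12.8% risen and 11.8% fallen of all genes tested. Rrm2, a subunit of ribonucleotide reductase, rose by 1.37 ± 0.24 (log2 difference ± SE), and the nucleoside kinase genes Tk1 and Dck rose by 0.89 ± 0.16 and 1.36 ± 0.31. The highest rise was that of Samhd1, whose protein breaks deoxynucleotides down and which is a known interferon-induced gene. Samhd1 averaged 2578 ± 145 normalised counts in ARE-/- hearts and 475.0 ± 37.0 in WT hearts (SD, n = 4 each), with 2.44 ± 0.07 (SE) as log2 difference. Dut, which clears dUTP, stood at 415.3 ± 33.9 in ARE-/- hearts and 527.5 ± 16.0 in WT hearts, a log2 difference of -0.35 ± 0.07, and was not past the threshold of edgeR with GC offsets (adjusted p = 0.0605).

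Other genes of mitosis were taken from the lists of mitotic kinases and spindle, of kinetochore and centromere, and of cohesin and condensin. Leaving out the genes chosen by name, 115 genes remain, of which 31 rose, 7 fell and 77 are not listed. That is 27.0% risen beside 12.8% of all genes tested, and 6.09% fallen beside 11.8%, with a median log2 difference of 1.09 among the 38 listed. With the chosen genes included, 32 of 118 rose and 8 fell. For these an edgeR refit gave 26 risen and 6 fallen genes, and 26 and 8 without the libraries that stood apart. Leaving out any other single library than ARE-/- replicate 1 gave 16 to 21 risen, GC offsets gave 24 risen and 2 fallen, and summing close libraries gave 0 and 1. Most of the genes that rose are low: with a mean of at least 50 normalised counts required, 13 rose and 8 fell.

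**Figure D2:**
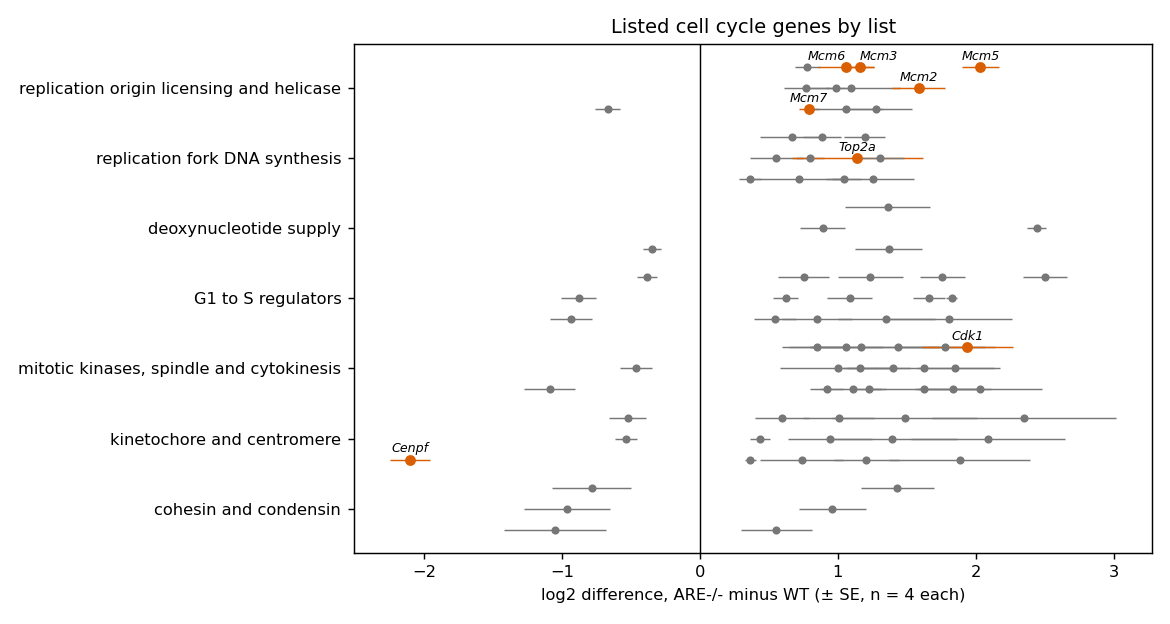
Log2 difference, ARE-/- minus WT (horizontal axis, with SE, n = 4 each), of every listed gene of 7 cell cycle lists, spread vertically within a list for legibility. Orange points are the 8 chosen genes, each drawn once, and grey points the other listed genes. Most points lie right of 0, and Cenpf at -2.10 lies left of all others.

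Of 50 mitotic kinase, spindle and cytokinesis genes, 17 rose and 2 fell. That is 34% and 4%, beside 12.8% risen and 11.8% fallen of all genes tested. Without the genes chosen by name, 16 of 48 rose (33.3%) and 2 fell (4.17%). Ccnb1, the cyclin partner of CDK1, averaged 69.0 ± 45.8 normalised counts in ARE-/- hearts and 15.0 ± 5.03 in WT hearts (SD, n = 4 each), with 2.03 ± 0.45 (SE) as log2 difference. Aurkb and Cdca8, of the complex that corrects spindle attachments, rose by 1.84 ± 0.28 and 1.85 ± 0.28 on the log2 scale, and Cdc20, an activator of the anaphase-promoting complex, by 1.22 ± 0.09, which became 0.56 with GC offsets (edgeR adjusted p = 0.104). Cdc25b, a phosphatase that activates CDK1, fell, with 102.8 ± 9.81 in ARE-/- hearts and 224.0 ± 59.8 in WT hearts (SD, n = 4 each) and a log2 difference of -1.09 ± 0.19. The other fallen gene, Pttg1, which encodes securin and was named after its value was seen, had a log2 difference of -0.47 ± 0.12, and of 0.11 in an edgeR refit with GC offsets.

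Of 47 kinetochore and centromere genes, 12 rose and 3 fell, the 3 being Cenpf, Cenpa and Zw10, the last named after its value was seen. That is 25.5% and 6.38%, beside 12.8% risen and 11.8% fallen of all genes tested. Without Cenpf, 12 of 46 rose (26.1%) and 2 fell (4.35%). Cenpa, the histone variant that marks centromeres, averaged 392.4 ± 33.1 normalised counts in ARE-/- hearts and 569.0 ± 41.4 in WT hearts (SD, n = 4 each), with -0.54 ± 0.08 (SE) as log2 difference. The difference for Zw10, which brings dynein to kinetochores, was -0.52 ± 0.14, so the fall of Cenpf was much larger than that of the other fallen members. With GC offsets Cenpa had a difference of -0.29, not past the threshold of edgeR (adjusted p = 0.153). Among the genes that rose, Bub1, a checkpoint kinase needed to place CENP-F at kinetochores, averaged 23.2 ± 14.5 in ARE-/- hearts and 4.96 ± 2.82 in WT hearts (SD, n = 4 each), with a log2 difference of 2.09 ± 0.56. Spc25, of the microtubule-binding NDC80 complex, rose by 1.88 ± 0.51, Bub1b by 1.21 ± 0.23 and Mis18a, which helps load CENP-A, by 1.01 ± 0.26 (log2 difference ± SE). Without ARE-/- replicate 1 the ratio of means went from 4.68 to 3.27 for Bub1 and from 3.83 to 2.73 for Spc25. It went from 2.43 to 1.98 for Bub1b and from 2.11 to 1.70 for Mis18a.

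Of 8 genes for known partners of CENP-F, Bub1 and Rhot1 are listed, a share of 25.0% that is near the 24.6% of all genes tested. Rhot1 encodes a mitochondrial surface protein to which CENP-F binds and which links mitochondria to microtubules. It had 573.1 ± 46.1 normalised counts in ARE-/- hearts and 769.3 ± 48.8 in WT hearts (SD, n = 4 each), with -0.43 ± 0.07 (SE) as log2 difference, and the groups did not overlap. With GC offsets the direction of Rhot1 turned, to 0.24 in the edgeR refit (adjusted p = 0.287), so its fall depends on that setting.

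Of 21 cohesin and condensin genes, 3 rose and 3 fell, or 14.3% each way, near the 12.8% and 11.8% of all genes tested. Cdca5, a protector of cohesin, rose by 1.43 ± 0.26 and the condensin genes Ncaph and Ncaph2 by 0.96 ± 0.24 and 0.55 ± 0.26 (log2 difference ± SE). Smc3, a core subunit of cohesin, averaged 327.1 ± 194 in ARE-/- hearts and 609.9 ± 50.3 in WT hearts (SD, n = 4 each), a log2 difference of -1.05 ± 0.37, with Nipbl, the cohesin loader, at -0.78 ± 0.29 and Ncapd3 at -0.96 ± 0.31. The groups overlapped for Smc3, Nipbl, Ncapd3 and Ncaph2, and ARE-/- replicate 1 lay far from its group for Smc3, Nipbl and Ncaph2. With GC offsets Smc3 had -0.28, Ncapd3 -0.45 and Nipbl -0.06, and Ncaph2 turned to -0.11, none past the threshold of edgeR.

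Of 33 regulators of the entry into replication, 12 rose (36.4%, beside 12.8% of all genes tested), 3 fell (9.09%, beside 11.8%) and 18 are not listed. Ccnd1, the cyclin that starts the passage from G1, averaged 1409 ± 165 normalised counts in ARE-/- hearts and 444.4 ± 48.3 in WT hearts (SD, n = 4 each), and E2f1, an activator of replication genes, averaged 162.5 ± 11.7 in ARE-/- hearts and 48.4 ± 9.42 in WT hearts. Their log2 differences were 1.66 ± 0.12 and 1.76 ± 0.16 (SE). Inhibitors of the same step rose as well. Cdkn1a, which encodes p21, averaged 1145 ± 31.3 in ARE-/- hearts and 323.0 ± 14.4 in WT hearts (SD, n = 4 each), a log2 difference of 1.82 ± 0.04, while Cdkn2a rose by 2.50 ± 0.16 and Cdkn2c by 1.08 ± 0.16. Tfdp2, a partner of E2F proteins, fell, with a log2 difference of -0.94 ± 0.16, and -0.37 with GC offsets (edgeR adjusted p = 0.0916). The other fallen genes, named after their values were seen, were E2f2, an activator of replication genes, at -0.88 ± 0.13 and the repressor gene E2f6 at -0.38 ± 0.07. Cdkn2c had 0.37 with GC offsets (edgeR adjusted p = 0.0906). Genes that promote and genes that restrain the cycle were thus among the risen, and genes of both kinds among the fallen.

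Of 23 genes of the replication checkpoint and DNA damage response, 7 rose (30.4%, beside 12.8% of all genes tested) and 1 fell (4.35%, beside 11.8%). The p53 gene Trp53 rose by 0.97 ± 0.11 (log2 difference ± SE), the repair gene Fanca by 1.67 ± 0.27, and the stress genes Gadd45b and Gadd45g by 1.17 ± 0.18 and 1.30 ± 0.23. The checkpoint genes Rad9a and Atrip rose by 0.96 ± 0.21 and 0.59 ± 0.18, and with GC offsets Atrip stood at -0.055. Gadd45b, Gadd45g and Rad9a had 0.53, 0.55 and 0.32 with these offsets, none past the threshold of edgeR. Mdm2, which marks p53 for breakdown, fell, with a log2 difference of -0.70 ± 0.23 and groups that overlapped, and stood at -0.13 with GC offsets.

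**Figure D3:**
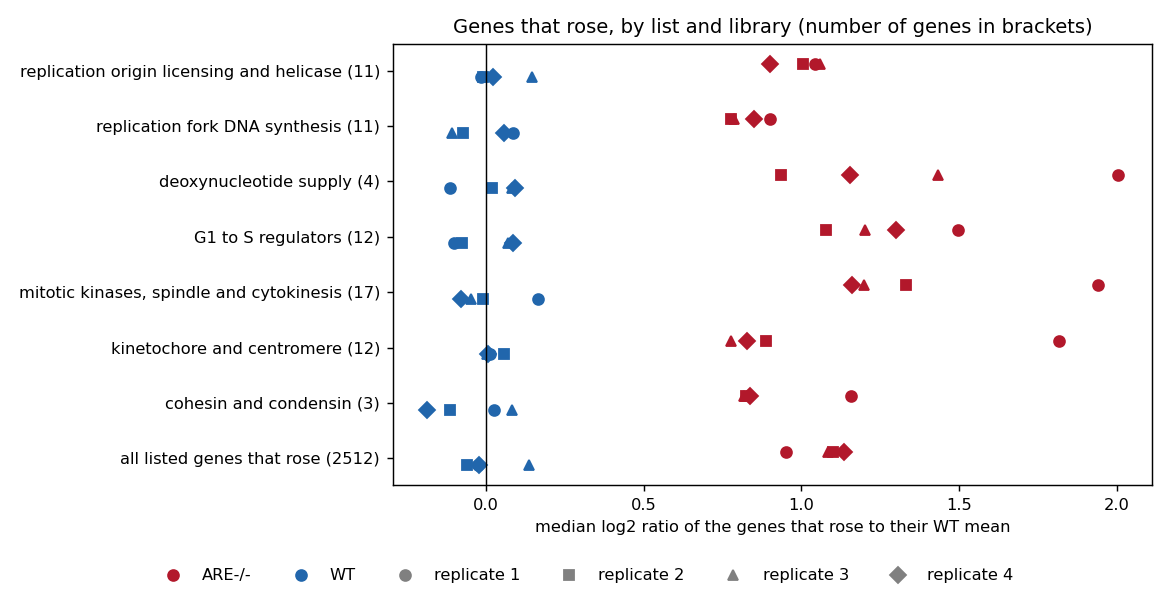
Median log2 ratio of the genes that rose to their WT mean (horizontal axis), for 7 cell cycle lists and for all 2512 listed genes that rose, in each of 4 ARE-/- libraries (red) and 4 WT libraries (blue), with symbols for replicate numbers and the number of genes in brackets. ARE-/- replicate 1 lies at 1.94 for mitotic genes and 1.81 for kinetochore genes, right of the other ARE-/- libraries, as it also does at 2.00 for deoxynucleotide genes, but among them for licensing genes.

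The place of ARE-/- replicate 1 in its group varied from list to list. The medians that follow are over genes listed as risen, so their height in ARE-/- libraries is set by that choice. The median log2 ratio to the WT mean of the 11 risen licensing genes was 1.04, 1.00, 1.06 and 0.90 in the ARE-/- libraries, in order of replicate number. The same median was 1.94, 1.33, 1.20 and 1.16 for the 17 risen mitotic kinase and spindle genes, and 1.81, 0.89, 0.78 and 0.83 for the 12 risen kinetochore genes. It was 2.00, 0.93, 1.43 and 1.16 for the 4 risen genes of deoxynucleotide supply, 1.50, 1.08, 1.20 and 1.30 for the 12 risen G1 to S regulators and 0.90, 0.78, 0.79 and 0.85 for the 11 risen fork genes. Replicate 1 thus had the highest median in these lists, by the least in the fork list, and not in the licensing list. ARE-/- replicate 1 was the highest ARE-/- library for 70.6% of the risen mitotic kinase and spindle genes and 75.0% of the risen kinetochore genes. It was highest for 75.0% of the risen deoxynucleotide genes, 45.5% of the risen fork genes, 33.3% of the risen G1 to S regulators, 27.3% of the risen licensing genes and 38.7% of all listed genes that rose. The licensing median hides members that went both ways in replicate 1, as Mcm6 and Mcm2 did. The lists also differ in transcript GC content, which is described further on. It runs from 46.9% to 57.8% over the risen licensing genes and from 37.1% to 52.9% over the risen kinetochore genes. Over the risen mitotic kinase and spindle genes it runs from 41.8% to 56.0%. The shares were not tested, nor was whether GC content bears on the place of replicate 1.

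Markers of T and NK cells and of macrophages were higher in ARE-/- hearts. For the counts of markers here and in the next paragraph, 24.6% of all genes tested are listed, 12.8% as risen and 11.8% as fallen. Of 18 T cell and NK cell markers, 14 are listed and all 14 rose, with summed normalised counts of 2235 to 2983 in ARE-/- libraries and 256.9 to 552.8 in WT libraries. Of 14 macrophage and monocyte markers, 11 are listed, 10 as risen, with sums of 42282 to 59289 in ARE-/- libraries and 7534 to 12311 in WT libraries. Replicate 1 was the highest ARE-/- library in both lists. Of 8 fibroblast markers 3 are listed, as risen, with sums of 4550 to 5554 in ARE-/- libraries and 2592 to 3280 in WT libraries. None of the listed markers of these 3 lists was at 0 in any library. How far more cells of these types account for the replication and mitosis genes was not tested.

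Listed markers of red cells, neutrophils, pericytes and smooth muscle were lower in ARE-/- hearts, as Cenpf was, and other lists were mixed. Of 9 red-cell lineage markers, 8 are listed and all fell, with sums of 117220 to 443983 in ARE-/- libraries and 732864 to 878175 in WT libraries, and the highest ARE-/- sum is again that of replicate 1, where the other 3 reach at most 134684. Of 12 cardiomyocyte markers, 9 are listed, 7 as fallen and 2 as risen, with sums of 228961 to 337352 in ARE-/- libraries and 457565 to 655623 in WT libraries, so heart muscle transcripts were abundant in every library. The lowest of these sums is that of ARE-/- replicate 1, where the other 3 ARE-/- libraries reach at least 317066. All 4 listed of 7 pericyte and smooth muscle markers fell (3133 to 4241 in ARE-/- libraries, 7762 to 8456 in WT libraries). Of 10 endothelial markers 4 are listed, 3 as fallen and 1 as risen (2848 in ARE-/- replicate 1 and 3660 to 3767 in the other ARE-/- libraries, 3592 to 4723 in WT libraries). All 5 listed of 9 neutrophil markers fell, with sums of 19.2 to 43.3 in ARE-/- libraries and 115.3 to 220.7 in WT libraries, and Ngp, Camp, Elane and Mpo were at 0 in at least 1 ARE-/- library. Of 8 B cell and plasma cell markers, 1 rose and 1 fell (251.1 to 292.7 in ARE-/- libraries, 156.8 to 260.4 in WT libraries). Their listed share, 25.0%, is near the 24.6% of all genes tested. Which of these cells Cenpf transcripts came from was not tested.

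The differences also followed the base composition of transcripts. Across 3544 listed genes with a mean of at least 50 normalised counts, the Spearman correlation of the log2 difference with transcript GC content was 0.402, and 0.466 without the libraries that stood apart. It was -0.214 with gene length. Genes are not independent replicates, and these all share the same libraries. Cenpf is long, at 11137 bases, and low in GC at 43.3%, beside medians of 3016 bases and 49.9%. Mcm5 (51.9%), Mcm3 (52.6%), Mcm2 (51.7%) and Mcm7 (53.4%) lie above the GC median, while Mcm6 (47.3%), Cdk1 (47.8%) and Top2a (43.4%) lie below it and rose all the same.

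**Figure D4:**
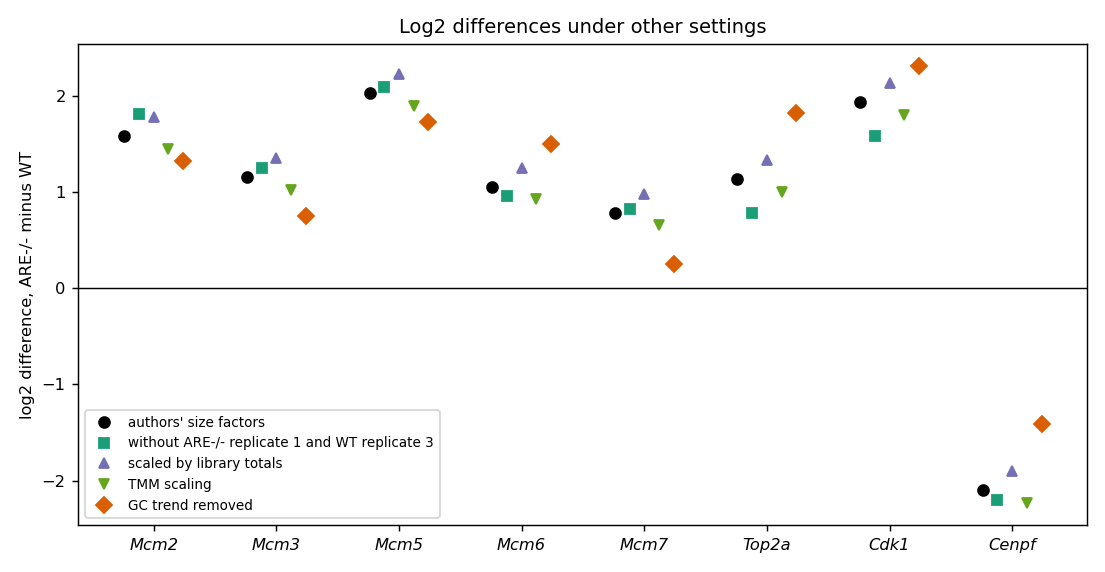
Log2 difference, ARE-/- minus WT (vertical axis), of the 8 genes with the authors' size factors and under 4 other settings, each point a single value. All points of the 7 risen genes lie above 0 and all of Cenpf below it. Removing the GC trend brings Mcm7 to 0.26 and Cenpf to -1.41 and moves Mcm6 to 1.51 and Top2a to 1.82.

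With offsets that remove the GC trend, all 8 genes kept their direction, and the sizes changed. Cenpf had a log2 difference of -1.41, Mcm5 of 1.74, Mcm3 of 0.75 and Mcm7 of 0.26, while Mcm6 had 1.51 and Top2a 1.82. The edgeR refit with these offsets called 7 of the 8 genes and not Mcm7 (adjusted p = 0.390). The 8 genes were listed on an adjusted p from these same libraries, so being called again is no independent support. Scaling by library totals shifts the median of all listed genes by 0.20 on the log2 scale, and no gene of the 8 changed direction under it. Since the listed genes served to estimate the offsets, real differences may have been removed with the trend. Summing the close libraries of each group left Mcm5 (adjusted p = 0.0371) and Cenpf (adjusted p = 0.0316) past the threshold of edgeR and none of the other 6 genes. Top2a depended most on single libraries, and its call was lost in the edgeR refit without ARE-/- replicate 2 or without any single WT library (adjusted p of 0.0538 to 0.135).

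The authors' deposited table of Gene Ontology terms holds 2065 terms, 127 of them with at least 1 of the 8 genes. The term DNA replication has an adjusted p of 0.0389 there with 69 genes, and it holds the 5 Mcm genes and Cdk1, with 44 of its genes risen and 24 fallen by their listed direction. The replication lists used above held 26 risen and 2 fallen, so the share that fell depends on which genes are counted. The term regulation of mitotic cell cycle has an adjusted p of 3.6e-04 with 141 genes, Top2a, Cdk1 and Cenpf among them. The term chromosomal region, at 0.0316 in the authors' deposited table with 91 genes, holds all of the 8 genes but Top2a. Those terms thus mix genes of both directions, as the 8 genes do.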

How the data were processed

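RNA of 4 ARE-/- and 4 WT hearts of male mice was measured by paired-end total RNA-seq, per the labels. The submitters' processing notes name STAR, DESeq2 and the build mm10, without versions, and nothing on the counting tool, strand or annotation is given in the sources used here. The deposited gene table holds raw read counts per library, FPKM computed by the authors, and the normalised signal of each group, the authors' group mean after dividing by size factors. It also holds the authors' log2 fold changes and p-values, and every listed gene has an adjusted p below 0.05. A second deposited table gives p-values and the count of genes of Gene Ontology terms, by the authors.

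Size factors and library totals were solved from the deposited columns, and 19606 tested genes follow from the authors' adjustment. Log2 differences use an offset of 0.5, which draws those of low genes towards 0. Calls are those of the authors. Refits on listed genes used edgeR 4.0.16 (quasi-likelihood, limma 3.58.1, R 4.3.3) or DESeq2 1.42.0, tested on simulated data, with Benjamini-Hochberg adjustment over a total of 19606 tests. The simulated data held no GC trend, no library apart and no prior selection of genes, so that test does not cover these features. The refits cover only genes already past the threshold in these libraries, so their calls are no independent support. GC offsets came from a lowess trend per library (span 0.3, statsmodels 0.14.6, GENCODE M21 longest transcripts, genes with a mean of at least 50). Named were the chosen genes, the 6 smallest adjusted p of each cell cycle list, all listed genes of lists with at most 8, the 5 genes most alike to the Mcm mean and to Cenpf, and Ifng, 63 genes in all, of which 1 is not reported here. Genes and lists were chosen with earlier results of these data known. Alternatives for Mcm6, Mcm7, Top2a and Cdk1, and GC offsets without the libraries that stood apart, were added after seeing the data. The labels give no batch. All pairs of libraries differed by more than sampling noise.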

Additional observations from a re-analysis of the deposited data

Results flagged for a closer look

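Each of 63 genes was checked within each genotype, which gave 126 sets of 4 values. In 19 sets a library lay far from the other 3 by the gap to its nearest neighbour. Chance alone does so in about 1 in 20 independent sets, but these sets share the same libraries and are not independent. Of the 19, 15 were ARE-/- replicate 1, which lay highest in 12 and lowest in 3. Values here are normalised counts, with the range of the other 3 libraries of the group.

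Among the helicase and mitotic genes, ARE-/- replicate 1 was high for Top2a at 443.1 (others 126.4 to 138.7), for Mcm6 at 426.8 (251.6 to 270.4) and for Cdk1 at 163.5 (84.9 to 96.2). It was low for Mcm2 at 232.2 (353.6 to 356.5). On the mitotic and kinetochore lists it was high for Ccnb1 at 137.4 (42.1 to 51.5), Spc25 at 123.5 (40.4 to 51.3), Bub1b at 119.4 (59.3 to 67.6) and Mis18a at 222.4 (104.5 to 117.8). It was also high for Smc3 at 614.8 (200.2 to 270.8), Nipbl at 660.6 (278.0 to 332.8), Mdm2 at 537.2 (267.4 to 302.9) and Pold4 at 387.5 (296.5 to 303.8). It was low for Ncaph2 at 1013 (1985 to 2091) and Ccnd1 at 1163 (1485 to 1499). Eif4a2, one of the genes most like Cenpf, was high in it at 4961 (3060 to 3356).

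WT replicate 3 was high for Tfdp2 at 1239 (917.8 to 961.0), Cdc25b at 312.7 (182.9 to 204.2) and Rhot1 at 842.3 (739.0 to 749.1). ARE-/- replicate 2 was high for Cenpa at 442.0 (374.1 to 377.7).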

How the results depend on the processing

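No log2 difference of the 8 genes changed sign under any alternative run. Of 144 alternative values of their calls, 129 stayed past the threshold. The 8 genes were listed on these same libraries, so that count is no independent support. Of 136 log2 differences, 115 moved by less than 1 SD of the replicates. The log2 differences with a replicate block repeat those without it, since every replicate number occurs in both groups. They are no separate check. With library totals the difference was 1.36 for Mcm3, 2.23 for Mcm5 and 0.99 for Mcm7, and with TMM scaling (trimmed mean) 0.66 for Mcm7. With GC offsets it was 0.75 for Mcm3, 1.74 for Mcm5, 1.51 for Mcm6, 0.26 for Mcm7, 1.82 for Top2a and -1.41 for Cenpf. Without both libraries that stood apart these became 0.80 for Mcm3, 1.77 for Mcm5, 1.50 for Mcm6, 0.23 for Mcm7 and -1.38 for Cenpf. The causes were not tested.

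Calls were lost as follows, each with its edgeR log2 fold change. Summing the close libraries of each group, which leaves fewer samples, lost Mcm2 (1.39, adjusted p = 0.147), Mcm3 (1.06), Mcm6 (1.19), Mcm7 (0.74), Top2a (1.72) and Cdk1 (2.29), but not Mcm5 (adjusted p = 0.0371) or Cenpf (0.0316). Mcm7 was lost with GC offsets (0.26), also with the replicate block (0.26) and without both libraries that stood apart (0.22). Top2a was lost with TMM (1.20). Leaving out each library in turn gave Top2a 0.67 to 1.52 (adjusted p of 0.0219 to 0.135), and it was lost without ARE-/- replicate 2 (1.49) and without WT replicate 1 (1.48), 2 (1.26), 3 (1.42) or 4 (1.22).

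The replication lists, at 26 risen and 2 fallen, had 15 and 0 at a fold of at least 2, 16 and 1 with GC offsets, 14 and 1 with GC offsets and the replicate block, and 2 and 0 with close libraries summed. Only 1 fell at an adjusted p under 0.01, with library totals and with the replicate block. Leaving out each library gave 17 to 24 risen and 1 to 2 fallen. The mitosis lists, at 32 and 8, had 20 and 3 at an adjusted p under 0.01, 13 risen at a mean of at least 50, 18 risen with TMM, 19 risen with the replicate block and 0 and 1 with close libraries summed. They had 3 fallen at a fold of at least 2 and 2 fallen with library totals, with GC offsets and with GC offsets and the replicate block. Leaving out each library gave 16 to 26 risen and 3 to 8 fallen, with 21 risen without ARE-/- replicate 3 or 4 and 4 fallen without ARE-/- replicate 2 or WT replicate 3.

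Same-numbered libraries deviated together with correlations of 0.039, 0.055, -0.15 and 0.29 over 2487 genes. Differently numbered libraries of the groups had correlations of -0.33 to 0.31, so a shared number did not mark closer libraries. What else libraries share cannot be read from these values. The replicate block left 3473 calls against 4292 without it in edgeR, among listed genes, and kept all 8 genes (adjusted p = 9.6e-05 for Cenpf). Of the genes called, 52.0% rose with the authors' size factors, 42.1% with TMM and 70.7% with library totals. The gene table holds only genes past the threshold, so list members below it, and members too shallow to pass, cannot be seen.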

Other observations

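Patterns like those of the helicase genes and of Cenpf were sought over the 8 libraries, each gene centred on its group means, so that the genotype difference itself plays no part. Among 3078 listed protein-coding genes with a mean of at least 100 normalised counts, the gene most like the mean of the 5 Mcm genes was Cd68, a lysosomal protein gene of macrophages, with a Pearson r of 0.97 over 8 libraries and 0.93 over the 6 left without ARE-/- replicate 1 and WT replicate 3. Cd68 rose by 2.75 ± 0.25 (log2 difference ± SE). Cnp (0.94), Art3 (0.94), Kbtbd11 (0.94) and Cpsf3l (0.93) came next, with r of 0.89 to 0.92 over the 6 libraries. Their log2 differences were 1.09 ± 0.11, -0.67 ± 0.07, 1.07 ± 0.26 and 0.97 ± 0.23. The Mcm genes themselves did not share a single pattern within groups. Over the 8 libraries their pairwise r ran from -0.62 (Mcm5 and Mcm6) to 0.62 (Mcm2 and Mcm3). Mcm6 had an r of 0.93 with Cenpf. A gene like the mean of the Mcm genes is therefore not like each of them.

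Among 3082 such genes, those most like Cenpf were Nebl, which encodes nebulette of the heart muscle Z disc (r = 0.995), Rpp14 (0.991), Eif4a2 (0.990), Fgd4 (0.988) and F13a1, a coagulation factor gene of macrophages (0.987). All fell, with log2 differences of -0.93 ± 0.20, -0.64 ± 0.14, -0.64 ± 0.17, -0.96 ± 0.29 and -1.65 ± 0.34 (SE). Over the 6 libraries r was 0.957 for Nebl and 0.863 to 0.938 for the others. These were the highest of all genes searched, over a few libraries that they share, and they describe likeness of pattern alone.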
